A study of Rattus norvegicus with 3 samples.

Results

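RAB proteins are small GTPases of the RAS superfamily that mark the membranes of the secretory and endocytic routes. Each RAB cycles between a GTP-bound form, which recruits effectors such as motors, tethers and scaffolds, and a GDP-bound form, which GDP dissociation inhibitors carry through the cytosol. In neurons RABs move vesicles along the axon, prime synaptic vesicles for release and sort receptors into recycling or degradative endosomes, while in myelinating glia they carry membrane to the sheath.

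The members were every symbol of the expression table formed by RAB, a number and at most a letter and a digit, so regulators and effectors with longer names were left out. The pattern found 51 of the 12758 symbols. It uses names alone and no measured value. All 51 matched a gene of the rat reference. The reference has 7 more RAB genes, RAB1B, RAB5A, RAB17, RAB19, RAB25, RAB26 and RAB44, which were not analysed here.

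RNA came from rat spinal cord digested at 6 °C with a cold active protease, from the supernatant left after cells were pelleted. Female Sprague Dawley rats of 3 months had a laminectomy at T9, without a contusion (No-SCI) or with one (SCI), and cord tissue at T8 was taken 24 h later from both groups. By the labels, No-SCI has 2 libraries while SCI has 1. The methods of the study speak of 2 animals per condition. The table holds 1 value per group for each gene, the authors' Cuffdiff estimate in FPKM, a read count scaled by transcript length and sequencing depth, so the values used carry no SD, no test was made from them, and every difference given here is a description of these libraries. The table gives no read depth per library. In this acellular fraction fewer cells or processes of a type and less RNA in each of them cannot be told apart.

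Differences are given as log2(SCI/No-SCI) of these values, with no pseudocount, and a 2-fold difference was used as the line for naming genes. Over all symbols 7.93% were at least 2-fold higher after SCI and 12.1% at least 2-fold lower, and the median log2 ratio was −0.12. Setting that median to 0 moves each log2 ratio up by 0.12.

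Marker genes of several cell types differed between the groups. All 12 meningeal fibroblast markers were at least 2-fold higher after SCI, with a summed level of 71.9 FPKM in No-SCI and 909 FPKM in SCI. Of the oligodendrocyte markers 9 of 14 were at least 2-fold lower (summed 90410 and 49063 FPKM), as were 6 of 9 astrocyte markers (24538 and 20775 FPKM), 4 of 13 neuronal markers (2389 and 2077 FPKM) and 8 of 9 skeletal muscle markers (399 and 34.2 FPKM). Of the 14 microglia and macrophage markers 2 were at least 2-fold higher and 3 at least 2-fold lower (1293 and 1481 FPKM), and of the 6 blood markers 3 were higher and 1 lower by that line (746 and 1220 FPKM). Of the 10 endothelial and mural markers 1 was at least 2-fold higher (54.9 and 58.5 FPKM). The listed genes of these sets were above 0 in both groups, as was every value of the table, whose lowest is 1. GFAP, AQP4, MBP and SNAP25, which define astrocytes, oligodendrocytes and neurons, were not analysed here. The marker lists were chosen with earlier results of these data known, so their counts are no independent result. What part these markers have in the RAB differences was not tested.

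The RAB family as a whole was lower after SCI in more members than it was higher. Of the 51 members 35 (68.6%) had a lower value in SCI, against 56.4% of all symbols, and 16 had a higher one. The median log2 ratio of the members was −0.32, or −0.21 after centring the median of all symbols. At least 2-fold higher were 5 members (9.80%), RAB3B, RAB3C, RAB2A, RAB15 and RAB43. At least 2-fold lower were 8 members (15.7%), RAB5B, RAB31, RAB36, RAB37, RAB3A, RAB9B, RAB5C and RAB6B. Both shares are close to those of all symbols.

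At smaller differences more members were lower than higher. A 1.5-fold line was passed by 11 members upward (21.6%) and 17 downward (33.3%), where 16.9% and 26.3% of all symbols pass it. The line of 1.3-fold, the minimum used in the study, was passed by 13 members upward (25.5%) and 25 downward (49.0%), where 24.6% and 35.7% of all symbols pass it. Next to the 2-fold line, RAB43 was just past it with 3.45 and 6.92 FPKM, and RAB18 just short of it with a log2 ratio of −0.94.

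**Figure D1:**
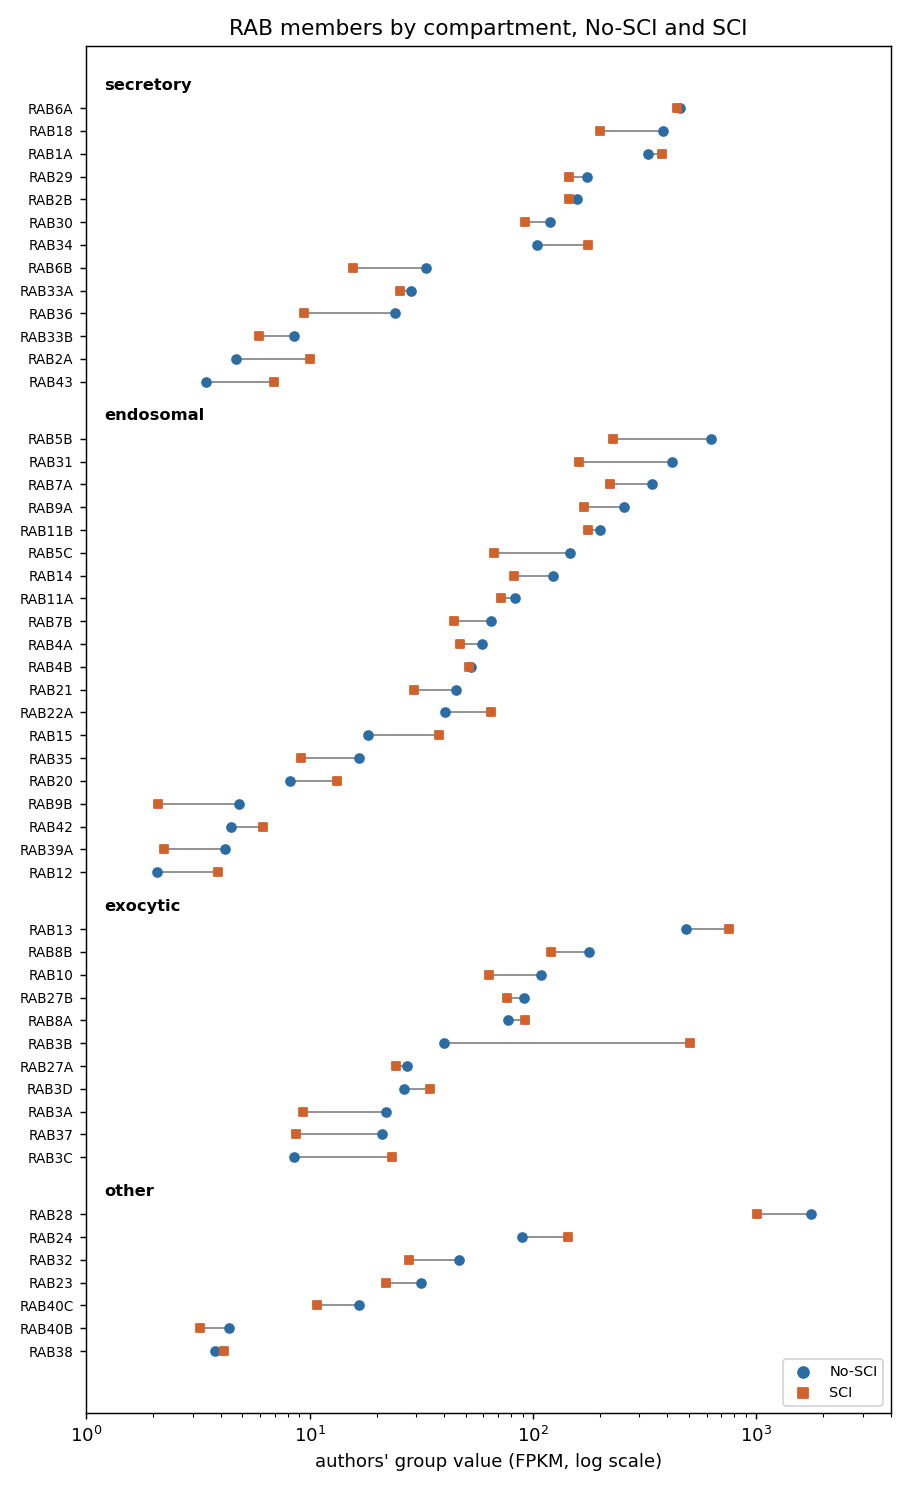
Authors' FPKM value of each RAB member in No-SCI (circles) and SCI (squares) on a log axis, ordered by the No-SCI value within each compartment. RAB28 has the highest value in both groups (1765 and 1013 FPKM), and the widest gap is that of RAB3B (40.2 and 504 FPKM).

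RAB levels differed widely between members. In No-SCI the members ran from 2.08 FPKM for RAB12 to 1765 FPKM for RAB28, with a median of 46.9 FPKM, a level above that of 72.3% of all symbols. In SCI they ran from 2.09 FPKM for RAB9B to 1013 FPKM for RAB28, with a median of 47.2 FPKM. A level of 100 FPKM or more was reached by 18 members in No-SCI and 16 in SCI, and 8 members were under 10 FPKM in both groups. Over the 51 members, Spearman's rho between the No-SCI level and the log2 ratio was −0.24, against −0.13 over all symbols; both axes share the No-SCI value.

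A few members made up most of the family's RNA per length. RAB28, RAB5B, RAB13, RAB6A and RAB31 together held 50.8% of the summed FPKM of the family in No-SCI. After SCI the top 5 were RAB28, RAB13, RAB3B, RAB6A and RAB1A, with 50.9% of the sum. The sum itself was 7389 FPKM in No-SCI and 6088 FPKM in SCI. RAB28, a divergent RAB linked to the cilium of photoreceptors, alone accounted for 23.9% of the No-SCI sum and 16.6% of the SCI sum.

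Levels between genes carry 1 further limit. Of the members 19 have a value written with more than the 6 significant digits of a single Cuffdiff estimate, as have 58.6% of all entries, and such a value can be a sum over several entries of 1 symbol. RAB28, RAB5B, RAB31 and RAB18 are among them, while RAB3B, RAB13, RAB6A and RAB1A are not.

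**Figure D2:**
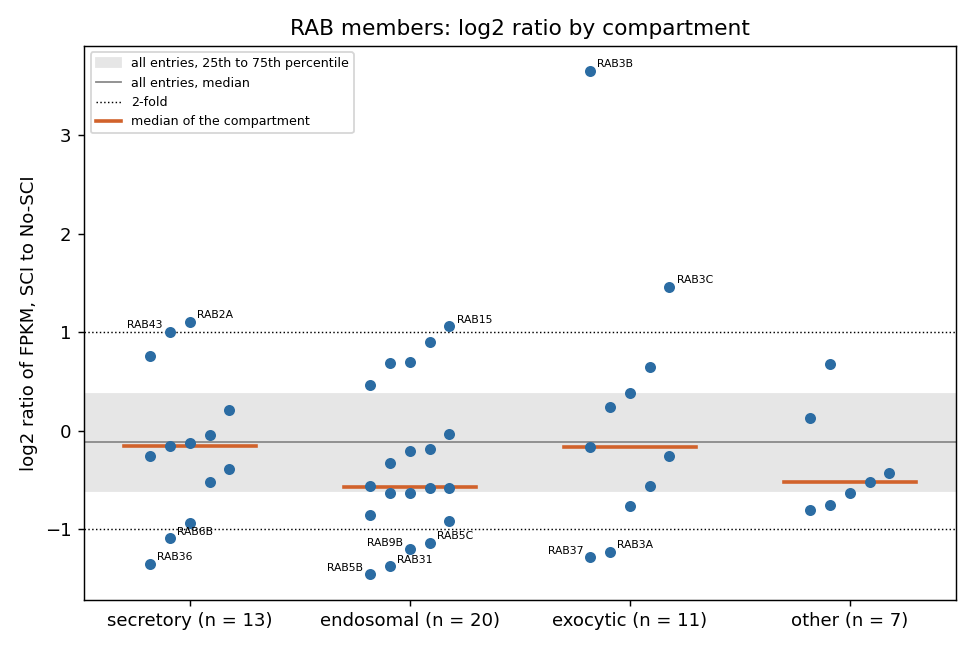
Log2 ratio of SCI to No-SCI for each RAB member by compartment, with the median of each compartment (bar), the median and the middle 50% of all symbols (line and grey band) and the 2-fold lines (dotted). The endosomal median is −0.57 and that of the other members −0.52, and RAB3B at 3.65 lies apart from all other members.

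The 51 members were placed by their best known site into secretory (endoplasmic reticulum and Golgi, 13), endosomal (20), exocytic (11) and other (7) compartments. The median log2 ratio was −0.15 for secretory, −0.57 for endosomal, −0.17 for exocytic and −0.52 for the other members. As means, the endosomal value was −0.34 and the exocytic one 0.19, and without values of more than 6 digits the medians were −0.32 and 0.0385, so the exocytic direction turns with these choices. Lower values in SCI were found in 9 of 13 secretory (69.2%), 15 of 20 endosomal (75%), 6 of 11 exocytic (54.5%) and 5 of 7 other members (71.4%). Over the whole family 68.6% were lower, and over all symbols 56.4%.

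In summed FPKM the compartments differed. The endosomal sum was 2520 FPKM in No-SCI and 1492 FPKM in SCI, a share of the family of 34.1% and 24.5%. The exocytic sum was 1087 FPKM in No-SCI and 1716 FPKM in SCI, a share of 14.7% and 28.2%. Without RAB3B the exocytic sum was 1047 and 1212 FPKM, a share of 14.2% and 21.7%, so RAB3B carries most of that difference in sums. The secretory sum was 1824 FPKM in No-SCI and 1655 FPKM in SCI.

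The RAB3 group, which acts in regulated exocytosis, held the members that differed most from each other. RAB3A is the main RAB of synaptic vesicles in the brain, RAB3B and RAB3C are its close relatives on secretory and synaptic vesicles, and RAB3D is best known from the granules of secretory cells. RefSeq holds promoters for all 4 genes, and the 100 bases before each start are shown because these paralogs differ most in level between the groups. They are printed 5′ to 3′ on the gene's strand, from the GRCr8 assembly, with letters of the searched motifs in capitals.

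RAB3A (chr16:18722274-18722373, minus strand): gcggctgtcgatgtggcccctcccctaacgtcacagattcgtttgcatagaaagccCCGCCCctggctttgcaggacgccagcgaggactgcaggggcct
RAB3B (chr5:128858991-128859090, plus strand): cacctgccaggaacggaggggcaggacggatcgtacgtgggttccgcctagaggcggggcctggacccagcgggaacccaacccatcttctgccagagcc
RAB3C (chr2:43575944-43576043, minus strand): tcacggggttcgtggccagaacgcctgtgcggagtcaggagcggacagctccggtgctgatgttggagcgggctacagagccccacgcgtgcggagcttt
RAB3D (chr8:28725268-28725367, minus strand): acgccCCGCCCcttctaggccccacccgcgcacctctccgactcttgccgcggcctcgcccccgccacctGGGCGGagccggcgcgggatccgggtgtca

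In these stretches the capitals mark GC boxes (GGGCGG on either strand). RAB3A has 1, RAB3D has 2, and RAB3B and RAB3C have none in the 100 bases before the start. All 4 hold a GC box somewhere in the longer window of 250 bases before to 50 after the start. The GC content of the 100 bases was 64% for RAB3A, 68% for RAB3B, 66% for RAB3C and 78% for RAB3D.

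RAB3B was at 40.2 FPKM in No-SCI and 504 FPKM in SCI, a log2 ratio of 3.65 or 12.5-fold. This ratio ranks 25 from the top among the 12758 symbols. RAB3C was at 8.51 FPKM in No-SCI and 23.4 FPKM in SCI (log2 ratio 1.46), and RAB3D at 26.5 and 34.6 FPKM (log2 ratio 0.39). RAB3A was at 21.9 FPKM in No-SCI and 9.34 FPKM in SCI, a log2 ratio of −1.23. The log2 ratios of RAB3B and RAB3A are thus 4.88 apart.

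The make-up of the RAB3 group differed between No-SCI and SCI. In No-SCI RAB3B held 41.4% of its summed FPKM, RAB3D 27.3%, RAB3A 22.6% and RAB3C 8.76%. In SCI RAB3B held 88.2%, RAB3D 6.06%, RAB3C 4.10% and RAB3A 1.64%. The sum of the group was 97.1 FPKM in No-SCI and 571 FPKM in SCI.

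Neuronal markers lay on both sides, with 10 of 13 lower after SCI and 3, GAP43, ENO2 and NEFH, higher. SYN1, a protein that tethers synaptic vesicles, was at 30.4 FPKM in No-SCI and 6.50 FPKM in SCI (log2 ratio −2.22). SYT1, the calcium sensor of release, was at 24.7 and 11.2 FPKM (log2 ratio −1.15). RAB3B differed in the other direction from both. Higher values were also found for all 12 meningeal fibroblast markers and for part of other lists. These were 8 of 14 microglia and macrophage, 5 of 10 endothelial and mural and 3 of 6 blood markers. Whether the RNA of RAB3B came from any of these cells was not tested.

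**Figure D3:**
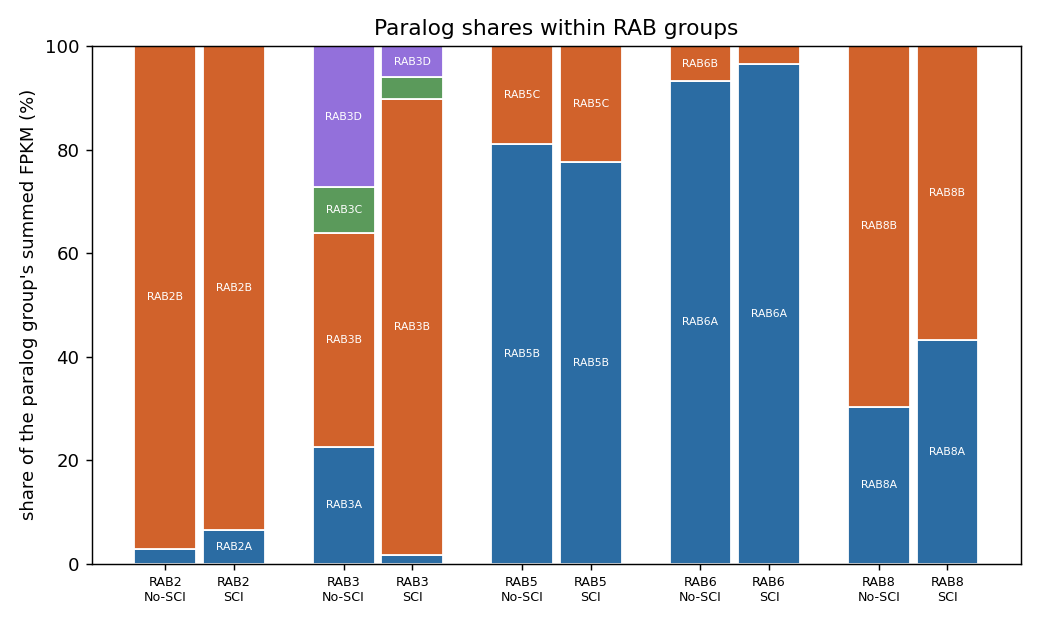
Share of each paralog in the summed FPKM of its RAB group, as stacked bars for No-SCI and SCI; segments of 5% or less carry no name. In the RAB3 group the share of RAB3B is 41.4% in No-SCI and 88.2% in SCI, while the RAB5 and RAB6 shares differ by less than 4 percentage points.

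The other members of regulated exocytosis differed less. RAB37, found on secretory granules, was at 21.2 FPKM in No-SCI and 8.69 FPKM in SCI, a log2 ratio of −1.29. RAB27A and RAB27B, which dock secretory granules and exosome-bearing endosomes at the plasma membrane, had log2 ratios of −0.17 and −0.26, with RAB27B the more abundant (91.7 and 76.7 FPKM).

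Among RABs that carry vesicles from the Golgi to the plasma membrane, RAB13 was the most abundant and was higher after SCI. RAB13 acts at cell junctions, and its own RNA is known to gather in cell protrusions. It was at 485 FPKM in No-SCI and 758 FPKM in SCI, a log2 ratio of 0.64, and was the second most abundant RAB in SCI. RAB8A was at 77.6 and 91.8 FPKM (log2 ratio 0.24). RAB8B was at 178 FPKM in No-SCI and 121 FPKM in SCI (log2 ratio −0.56), and RAB10, which also serves axon growth, at 109 and 63.9 FPKM (log2 ratio −0.76). The share of RAB8A in the RAB8 pair was therefore 30.3% in No-SCI and 43.1% in SCI.

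Some RABs of the early endosome were among the lowest of the family in SCI relative to No-SCI. The 7 early endosomal members had a median log2 ratio of −0.63. Of them 3 (42.9%, against 12.1% of all symbols), RAB5B, RAB5C and RAB31, were at least 2-fold lower, with none at least 2-fold higher. These 3 and RAB21 have values of more than 6 digits, which can be sums over several entries. The members without such values were RAB14 (log2 ratio −0.58), RAB20 (0.70) and RAB22A (0.69). In sums, early endosomal RABs were at 1413 FPKM in No-SCI and 648 FPKM in SCI. RAB5B and RAB31 were the largest terms of both sums.

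RAB5 proteins drive fusion of endocytic vesicles with early endosomes. RAB5B was at 631 FPKM in No-SCI, the second highest level of the family, and at 230 FPKM in SCI, a log2 ratio of −1.46. RAB5C was at 147 and 66.7 FPKM, a log2 ratio of −1.14. Both members were lower, and their shares of the pair, 81.1% and 18.9% in No-SCI, were 77.5% and 22.5% in SCI.

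RAB31 and RAB22A are close relatives that act between the trans-Golgi network and early endosomes, and they differed in opposite directions. RAB31 was at 419 FPKM in No-SCI and 161 FPKM in SCI (log2 ratio −1.38). RAB22A was at 40.3 FPKM in No-SCI and 65.2 FPKM in SCI (log2 ratio 0.69), which puts the log2 ratios of the pair 2.07 apart.

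The 100 bases before the starts of RAB31 and RAB5B, the most abundant members past the 2-fold line in No-SCI, are shown for comparison with those of the RAB3 genes. Capitals again mark GC boxes, and in RAB31 also the E-box CACGTG.

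RAB31 (chr9:112828093-112828192, minus strand): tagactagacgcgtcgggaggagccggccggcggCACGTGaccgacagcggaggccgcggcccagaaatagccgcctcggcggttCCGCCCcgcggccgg
RAB5B (chr7:1712737-1712836, minus strand): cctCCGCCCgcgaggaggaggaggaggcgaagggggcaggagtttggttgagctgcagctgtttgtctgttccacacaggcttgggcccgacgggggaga

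Of the remaining early endosomal RABs, RAB14 was at 123 FPKM in No-SCI and 82.3 FPKM in SCI (log2 ratio −0.58). RAB21, which returns integrins to the cell surface, was at 45.4 and 29.3 FPKM (log2 ratio −0.63). RAB20, known from the maturing phagosome, went the other way, with 8.17 FPKM in No-SCI and 13.3 FPKM in SCI (log2 ratio 0.70).

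RABs of recycling endosomes differed little in comparison. Their 7 members had a median log2 ratio of −0.18 and a summed level of 432 FPKM in No-SCI and 399 FPKM in SCI. RAB11A and RAB11B, which return receptors to the surface by the slow route and carry integrins into axons, had log2 ratios of −0.20 and −0.18, with levels of 83.0 and 72.1 FPKM for RAB11A and of 200.1 and 177 FPKM for RAB11B. RAB4A and RAB4B, of the fast route, had log2 ratios of −0.32 and −0.03, and the sign of RAB4B turns to 0.08 when the median of all symbols is set to 0.

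The exceptions in this group were RAB15, RAB12 and RAB35. RAB15, which acts in transferrin receptor recycling, was at 18.2 FPKM in No-SCI and 38.0 FPKM in SCI, a log2 ratio of 1.06. RAB12 was at 2.08 and 3.89 FPKM (log2 ratio 0.90). RAB35 was at 16.6 FPKM in No-SCI and 9.18 FPKM in SCI (log2 ratio −0.85).

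RABs of late endosomes and lysosomes were lower in 5 of 6 members (83.3%, against 56.4% of all symbols), with a median log2 ratio of −0.60. RAB7A, which brings late endosomes to lysosomes and rides on the signalling endosomes that travel back along axons, was at 341 FPKM in No-SCI and 221 FPKM in SCI (log2 ratio −0.63). RAB7B was at 65.3 and 44.4 FPKM (log2 ratio −0.56). RAB9A, which returns mannose 6-phosphate receptors to the Golgi, was at 255 and 170.4 FPKM (log2 ratio −0.58), and its rare paralog RAB9B at 4.82 and 2.09 FPKM (log2 ratio −1.20). RAB39A was at 4.19 and 2.22 FPKM (log2 ratio −0.92), and RAB42, the single higher member, at 4.46 and 6.17 FPKM (log2 ratio 0.47).

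Secretory members lay on both sides, except at the endoplasmic reticulum and lipid droplets, where the only member, RAB18, was lower. The 3 RABs between endoplasmic reticulum and Golgi had a median log2 ratio of 0.22. RAB1A, which admits vesicles to the Golgi, was at 328 FPKM in No-SCI and 381 FPKM in SCI (log2 ratio 0.22). RAB2A was at 4.68 FPKM in No-SCI and 10.1 FPKM in SCI (log2 ratio 1.11), while RAB2B was at 158 and 145 FPKM (log2 ratio −0.12). RAB2A thus held 2.88% of the RAB2 pair in No-SCI and 6.51% in SCI. RAB18, of the endoplasmic reticulum and lipid droplets, was at 382 FPKM in No-SCI and 199.7 FPKM in SCI.

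The 9 Golgi and trans-Golgi RABs were lower in 7 members (77.8%, against 56.4% of all symbols), with a median log2 ratio of −0.26. RAB6A, which guides vesicles from the Golgi, was nearly level at 454 FPKM in No-SCI and 441 FPKM in SCI (log2 ratio −0.04, or 0.07 with the median of all symbols set to 0). Its neuron-enriched paralog RAB6B was at 33.2 and 15.6 FPKM, a log2 ratio of −1.09 that is −0.97 after the same centring. RAB36 was at 24.2 FPKM in No-SCI and 9.48 FPKM in SCI (log2 ratio −1.35).

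RAB34, which positions lysosomes and serves the forming cilium, was the abundant Golgi member with a higher value, at 105 FPKM in No-SCI and 177 FPKM in SCI (log2 ratio 0.75). RAB43 was at 3.45 and 6.92 FPKM, 2.01-fold higher in SCI. RAB29, a partner of the kinase LRRK2 at the trans-Golgi network, was at 174 and 146 FPKM (log2 ratio −0.26), and RAB30 at 119.97 and 92.0 FPKM (log2 ratio −0.38). RAB33A and RAB33B, of which the latter binds the autophagy protein ATG16L1, had log2 ratios of −0.15 and −0.52.

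Of the members with other sites, RAB28 had a log2 ratio of −0.80 and RAB23, an inhibitor of Hedgehog signalling in the cilium, one of −0.52 (31.6 and 22.1 FPKM). RAB24, found on autophagosomes, was higher after SCI, with 89.7 and 144 FPKM (log2 ratio 0.68). RAB32 and RAB38 both build lysosome-related organelles such as melanosomes. RAB32 was at 46.9 FPKM in No-SCI and 27.8 FPKM in SCI (log2 ratio −0.75), and RAB38 at 3.78 and 4.13 FPKM (log2 ratio 0.13). RAB40B and RAB40C, which join ubiquitin ligases through a SOCS box, had log2 ratios of −0.43 and −0.63.

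Across the 12 RAB numbers with more than 1 listed paralog, which cover 26 members, most groups lay on the lower side. In 9 groups every member was lower after SCI, and in 3 (RAB2, RAB3 and RAB8) members lay on both sides. Every member was higher in 0 groups. With the median of all symbols set to 0, 7 groups were lower in every member and 5 lay on both sides, since RAB4B and RAB6A change sign. Lower values were also the more frequent ones over the family (68.6%) and over all symbols (56.4%). These counts therefore do not show that paralogs are alike. The log2 ratios within a group were at least 1 apart in RAB2 (1.23), RAB3 (4.88) and RAB6 (1.05). The closest pairs were RAB11 with 0.02, RAB7 with 0.07 and RAB27 with 0.09 between their members.

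Promoters of 42 members were found in RefSeq on GRCr8, and letters of 5 motifs were searched on both strands between 250 bases before and 50 after the start. The GC box GGGCGG was in 36 of 42 (85.7%), against 33.1% of all 33469 rat promoters and 61.6% of the 9762 promoters of genes in the table. TATAAA was in none of the 42, against 14.2% of all promoters and 7.30% of those in the table. The CRE letters TGACGTCA were in none (1.83% and 3.09%), CCAAT was in 17 of 42 (40.5%, against 37.5% and 38.1%) and CACGTG in RAB20, RAB21 and RAB31 (7.14%, against 6.42% and 9.29%).

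Between members past the 2-fold line the same letters showed little contrast. All 4 members with a promoter that were at least 2-fold higher and all 6 that were at least 2-fold lower held a GC box. CCAAT was in 0 of the 4 and in 3 of the 6 (RAB3A, RAB5B and RAB5C). A match only says that the letters are present in this window.

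Lists of genes that recycle, activate, inactivate or bind RABs had more members lower after SCI than higher. So had all symbols, with 56.4% lower and 12.1% at least 2-fold lower. Of 13 listed genes of RAB recycling and prenylation 10 were lower (76.9%), with a median log2 ratio of −0.30. At least 2-fold lower were 2 of the 13 (15.4%). The membrane protein YIPF6 was at 47.1 FPKM in No-SCI and 19.1 FPKM in SCI (log2 ratio −1.30). GDI2, a GDP dissociation inhibitor, was at 72.8 and 59.0 FPKM (log2 ratio −0.30), and RABAC1, which binds prenylated RABs at the Golgi, at 65.8 and 66.9 FPKM.

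Exchange factors, which load GTP onto RABs, were lower in 28 of 39 (71.8%, against 56.4% of all symbols), with a median log2 ratio of −0.47. At least 2-fold lower were 8 of the 39 (20.5%) and at least 2-fold higher none, against 12.1% and 7.93% of all symbols. MADD, which activates RAB3 and RAB27, was at 26.1 FPKM in No-SCI and 12.4 FPKM in SCI (log2 ratio −1.07). ANKRD27, which activates RAB21, was at 15.7 and 7.11 FPKM (log2 ratio −1.15). The most abundant were RIN2, CCZ1B and TRAPPC3, and also past the line were DENND11 (log2 ratio −2.39), DENND2B (−1.50), DENND2C (−1.27), HPS4 (−1.22) and DENND5A (−1.10).

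GTPase-activating proteins, which end the active state, were lower in 23 of 31 (74.2%, against 56.4% of all symbols), with a median log2 ratio of −0.31. TBC1D9B was at 256 FPKM in No-SCI and 80.1 FPKM in SCI (log2 ratio −1.68), and TBC1D14 at 187 and 72.1 FPKM (log2 ratio −1.37). RABGAP1, EVI5L and TBC1D13 were the other 3 past the line, with log2 ratios of −1.13, −1.17 and −1.04. Of the 31, 16.1% were at least 2-fold lower and none was at least 2-fold higher, against 12.1% and 7.93% of all symbols. Of the genes that phosphorylate RABs or reverse it, both that were listed had higher values after SCI, the kinase LRRK1 at 5.37 and 6.98 FPKM and the phosphatase PPM1H at 8.50 and 15.3 FPKM.

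Effectors bind the GTP form and carry out the transport step. Of 48 listed, 32 were lower (66.7%), 12 at least 2-fold lower (25%) and 3 at least 2-fold higher (6.25%), with a median log2 ratio of −0.33. Of all symbols 56.4% were lower, 12.1% at least 2-fold lower and 7.93% at least 2-fold higher. The most abundant effector was PLIN2, a lipid droplet coat protein, at 1579 FPKM in No-SCI and 1264 FPKM in SCI.

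**Figure D4:**
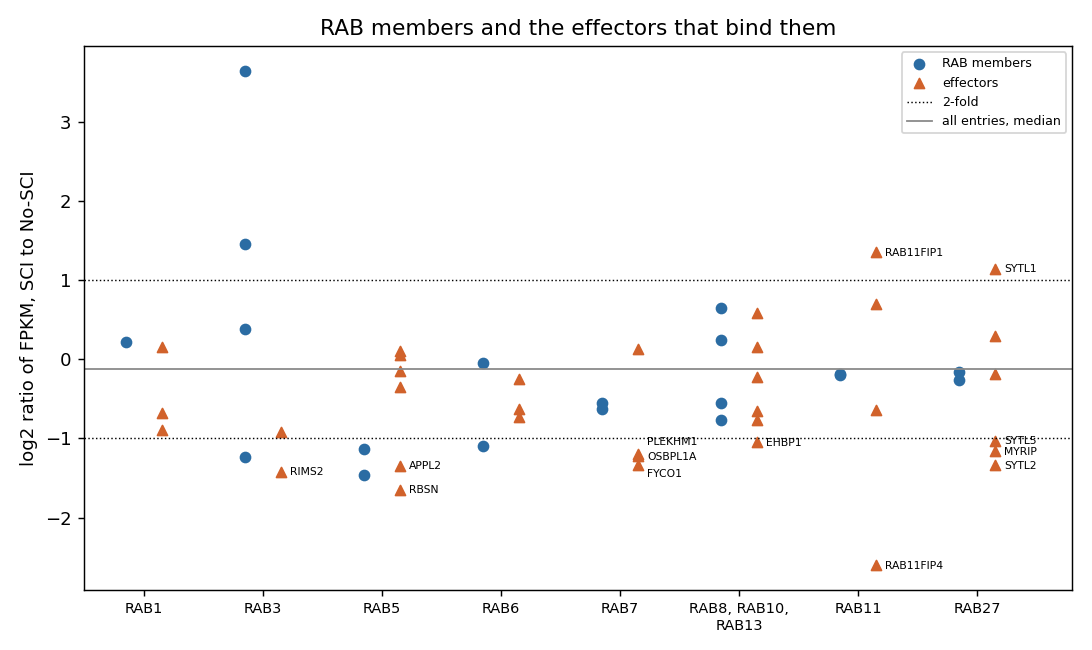
Log2 ratio of SCI to No-SCI of RAB members (circles) and of the effectors that bind them (triangles), by RAB, with the 2-fold lines (dotted) and the median of all symbols (line). For RAB3 both effectors lie below 0 while 3 of 4 members lie above it, and for RAB7 3 of 4 effectors are past the 2-fold line while both members lie near −0.6.

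Set beside their RABs, the effectors of RAB3 were lower where RAB3B was higher. RIMS2, a scaffold of the presynaptic active zone, was at 184 FPKM in No-SCI and 68.5 FPKM in SCI (log2 ratio −1.42), and RPH3A at 6.89 and 3.65 FPKM (log2 ratio −0.92). MADD was lower as well. RAB3A, with its log2 ratio of −1.23, is the member of the group with the same sign. The study describes Rims2 RNA as mainly circular in the rodent brain, from earlier work, and detected circular Rims2 in rat cord. The FPKM of RIMS2 does not separate circular from linear RNA, so it may not give the level of RNA that encodes the effector.

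Effectors of RAB7 were at least 2-fold lower in 3 of 4, against 12.1% of all symbols. FYCO1, which links late endosomes to kinesin, had a log2 ratio of −1.33 (31.9 and 12.7 FPKM), OSBPL1A, a sterol sensor, one of −1.22 (135 and 58.0 FPKM), and PLEKHM1, which tethers lysosomes, one of −1.19 (30.1 and 13.1 FPKM). RILP, which links them to dynein, was near the lowest value of the table in both groups (1.67 and 1.84 FPKM).

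Effectors of RAB5 were split. RBSN and APPL2 were at 38.1 and 12.2 FPKM (log2 ratio −1.65) and at 44.0 and 17.3 FPKM (log2 ratio −1.35). EEA1, RABEP1 and RABEP2 had log2 ratios of 0.05, −0.15 and 0.11, although both RAB5 members were at least 2-fold lower, and that of APPL1 was −0.35.

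Effectors of RAB11 diverged while RAB11A and RAB11B hardly differed. RAB11FIP4 was at 26.3 FPKM in No-SCI and 4.33 FPKM in SCI (log2 ratio −2.60), the lowest ratio of the effectors. RAB11FIP1 was at 3.88 and 9.93 FPKM (log2 ratio 1.36), RAB11FIP2 at 8.07 and 13.1 FPKM (log2 ratio 0.70) and RAB11FIP5 at 49.9 and 31.9 FPKM (log2 ratio −0.64).

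Effectors of RAB27 were at least 2-fold lower in 3 of 6, against 12.1% of all symbols. SYTL2 (log2 ratio −1.34), MYRIP (−1.16) and SYTL5 (−1.03), which tie RAB27 granules to membrane or to myosin, were lower, and SYTL1 was at 1.58 and 3.49 FPKM (log2 ratio 1.15). All 3 effectors of RAB6 that were listed, BICD1, BICD2 and GCC2, had log2 ratios between −0.72 and −0.25. Of those of RAB8, RAB10 and RAB13, EHBP1 was past the line, at 68.7 and 33.3 FPKM (log2 ratio −1.05).

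The exocyst, the complex that tethers vesicles delivered by RAB8, RAB10 and RAB11, had lower values in 8 of 9 subunits (88.9%), with a median log2 ratio of −0.75. EXOC6B (−1.68), EXOC2 (−1.18) and EXOC4 (−1.18), 33.3% of the 9, were at least 2-fold lower. SNARE proteins, which fuse the tethered vesicles, were lower in 22 of 34 (64.7%), with a median of −0.29. Of the 34 genes 3 (8.82%) were at least 2-fold higher and 6 (17.6%) at least 2-fold lower. Of all symbols 56.4% were lower, 7.93% at least 2-fold higher and 12.1% at least 2-fold lower. VAMP1, a synaptic vesicle SNARE, was at 81.8 FPKM in No-SCI and 21.5 FPKM in SCI (log2 ratio −1.92), and also past the line downward were GOSR2 (−1.42), STX7 (−1.41), VAMP4 (−1.38) and NAPB (−1.12). Upward past the line were VAMP5 (1.60), VAMP8 (1.07) and STX3 (1.04), and the neuronal syntaxin STX1A had a log2 ratio of 0.59.

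**Figure D5:**
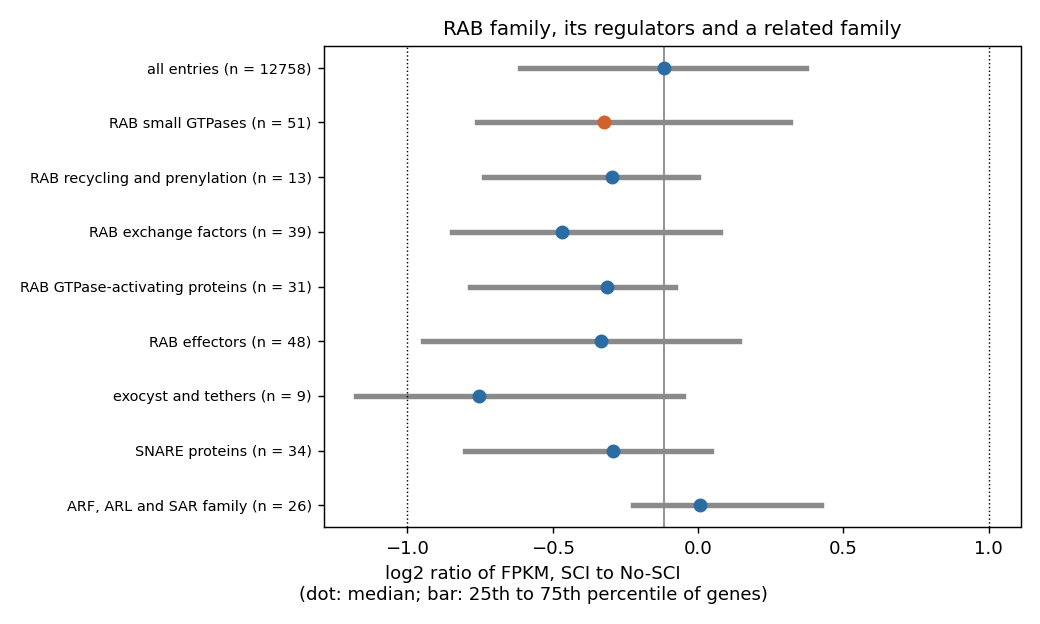
Median log2 ratio of SCI to No-SCI (dot) and the 25th to 75th percentile of genes (bar) for all symbols, the RAB family, its regulators, the exocyst, SNARE proteins and a related GTPase family, with the median of all symbols (line) and the 2-fold lines (dotted). The RAB median is −0.32, that of the exocyst −0.75, and that of the ARF, ARL and SAR family is 0.0082.

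Next to a related family of small GTPases, the RAB family had the lower median. The ARF, ARL and SAR family, which controls vesicle coats and cilia, had 26 listed genes, 13 lower and 13 higher, with a median log2 ratio of 0.0082. In that family 4 genes (15.4%) were at least 2-fold higher and none was at least 2-fold lower, whereas 8 RABs (15.7%) were. Of all symbols 7.93% were at least 2-fold higher and 12.1% at least 2-fold lower. With 1 value per group this difference between families was not tested.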

How the data were processed

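The labels give 2 No-SCI libraries and 1 SCI library of strand-specific, ribosome-depleted total RNA. The authors cut all libraries to the read number of the smallest one, then aligned to rn6 (STAR 2.5.4b, per the labels) and estimated expression with Cuffdiff (1.3.0, per the labels). The values the authors deposited are FPKM, 1 per group for each of 12771 entries, with upper quartile normalization. Columns with the authors' fold changes, p-values and q-values were not used. Of the columns used, 0 lacked a group.

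For 13 symbols listed more than once the entry with the larger mean was kept. Computed here were log2 ratios without a pseudocount, counts past 2-fold, medians and sums. The table holds no values or depths of single libraries, so no error was given and no test made. The lowest value in the table is 1. The members, compartments and lists were chosen with earlier results of these data known, and the split of effectors by RAB and the motifs were added after the values were seen. All members may be named. Of each other list, the genes past 2-fold and the 3 most abundant may be named, and of marker lists the 2 most abundant and the defining ones. The other genes given in the text were chosen after their values were seen.

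Alternatives were pseudocounts of 1 and 0.1, median centring, the same total, the same upper quartile, means of at least 1 or 10 FPKM, every entry counted, lines of 1.3-fold and 1.5-fold and means for medians. The calls were tested on simulated data. A move of a median by more than 0.2, or of a count by more than 1.5 times, is reported. Promoters came from RefSeq (GRCr8), which is not the build of the values. 1 of 2 promoter rows was kept for the symbol with 2. Python 3.11.15, numpy 2.4.6, pandas 2.3.3 and matplotlib 3.10.9 were used. Some genes of the lists are counted but not reported here by name.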

Additional observations from a re-analysis of the deposited data

How the results depend on the processing

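The count of RABs at least 2-fold higher was 5 and went to 3 with a pseudocount of 1 and to 3 with a mean of at least 10 FPKM, because RAB2A and RAB43 lie at low levels. It was 13 at a line of 1.3-fold and 11 at 1.5-fold, and that of lower RABs, 8, was 25 and 17. Leaving out values of more than 6 digits, an alternative added after the values were seen, left 2 higher and 3 lower and moved the medians of the endosomal RABs to −0.32, of the exocytic RABs to 0.0385 and of the exchange factors to −0.18. With means in place of medians the endosomal value was −0.34 and the exocytic one 0.19. RAB4B and RAB6A changed sign, to 0.0835 and 0.0749 with median centring, 0.0116 and 0.0030 with the same total and 0.0702 and 0.0616 with the same upper quartile. The median of the RABs with other sites was below the endosomal one with a mean of at least 10 FPKM (−0.63), with 1 subtracted (−0.59) and without values of more than 6 digits (−0.48). The family median ran from −0.35 to −0.17 over the alternatives. Subtracting 1 from every value, also added later, took RAB12 to 1.42 and RAB39A to −1.39, so that 6 were higher and 9 lower, and median centring put it at 1.02 and RAB6B at −0.97. The log2 ratio range within the RAB3 group ran from 4.76 to 5.01. No library could be left out in turn, since the table holds group values. No paired analysis was possible because the labels give the groups no shared numbers and the result comes from no test.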
